A study of Homo sapiens with 9 samples.

Results

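Netrins and their receptors were examined in U2-OS cells, an established human osteosarcoma line, through 8 genes out of the 60609 in the count tables: the receptors UNC5A, UNC5B, UNC5C, UNC5D, DCC and NEO1, and the ligands NTN1 and NTN4. UNC5C was selected on these libraries because it was lower in both clones that overexpress NCBP2, and the other 7 genes were taken as its relatives and partners. All 8 passed the filter on low counts, as did 21682 genes in all. The values of UNC5C against the vector clones are therefore a description and carry no test.

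The study asked which RNAs differ in level when NCBP2 is overexpressed, a protein that binds RNA caps in the nucleus as a partner of NCBP1. RNA was sequenced after removal of ribosomal RNA from clone A1, clone A4 and empty-vector cells, with 3 libraries each that are called replicates A, B and C here. The vector libraries came from 3 different clones, and those of A1 or A4 from a single clone. No genotype other than the transgene or the empty vector is named in the labels, and the labels do not give the promoter that drives NCBP2. Nothing in them says whether the 3 libraries of an NCBP2 clone were separate cultures, so the p-values measure the spread between these libraries, which may be technical, and a difference between 1 NCBP2 clone and the vector clones cannot be told apart from a difference between clones.

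Netrins are secreted, laminin-like proteins that steer growing axons and migrating cells. DCC and its relative neogenin (NEO1) mediate attraction towards netrin-1, whereas the UNC5 receptors mediate repulsion, alone or together with DCC. DCC and the UNC5 proteins are also described as dependence receptors, which favour cell death when no ligand is bound, and they have been studied in tumours for that reason.

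A library held 80341579 to 111784333 reads in all, of which 29234022 to 50554080 were counted on the strand of annotated genes. NCBP2 itself measured 298.9 to 348.4 CPM (counts relative to the effective library size, scaled to a common total) in clone A1, 456.2 to 1035 CPM in clone A4 and 90.6 to 98.4 CPM in the vector libraries, in the direction of the labels. Clone A1 replicate A stood apart, with 21823 genes detected against 25390 to 29787 in the others and correlations of log2 CPM across genes of at most 0.928 with any other library. Of 9 osteoblast-lineage markers, RUNX2, SPARC, COL1A1 and ALPL exceeded 1 CPM in every library, and the later markers SP7, BGLAP and IBSP stayed under 0.1 CPM. The summed osteoblast list was 2170 to 2763 CPM in clone A1, 3025 to 3739 CPM in clone A4 and 3064 to 3942 CPM in the vector libraries. Among markers of other cell types, SNAP25 of 8 neuronal genes, TEK of 6 endothelial genes, EPCAM and CLDN4 of 6 epithelial genes and 0 of 6 blood-cell genes exceeded 1 CPM in every library. The neuronal list, of interest because netrin receptors are best known from neurons, summed to 15.8 to 23.5 CPM in clone A1, 21.8 to 24.6 CPM in clone A4 and 18.7 to 27.1 CPM in the vector libraries.

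UNC5C and NTN4 are the genes on which the results below turn, one low in both NCBP2 clones and the other high in clone A4 alone. UNC5C (ENSG00000182168.15) is a minus-strand gene of chromosome 4 (GRCh38, 95162504 to 95549206), and NTN4 (ENSG00000074527.12) a minus-strand gene of chromosome 12 (95657807 to 95791189). The 250 bases before the outermost annotated start of NTN4 are shown, because NTN4 was the gene of the 8 with the largest positive difference between the NCBP2 clones. They are given 5′ to 3′ on the strand of the gene, from the hg38 sequence at chr12:95791190-95791439. No stretch is in capitals, because 0 matches were found on either strand to the 4 motifs searched, which were the CCAAT box, the GC box core GGGCGG, the TATA box form TATAAA and the E box CACGTG.
NTN4 upstream: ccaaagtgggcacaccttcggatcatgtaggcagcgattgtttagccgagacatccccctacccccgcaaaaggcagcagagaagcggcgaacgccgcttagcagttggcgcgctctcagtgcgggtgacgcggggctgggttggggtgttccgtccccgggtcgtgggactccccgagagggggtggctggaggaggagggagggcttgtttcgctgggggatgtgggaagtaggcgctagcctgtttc
The stretch has a GC content of 64.4% and 19 CpG dinucleotides. The medians over all 34796 RefSeq promoter entries, cut to the same 250 bases, are 58.0% and 11. The CCAAT box occurs in 32% of those stretches, GGGCGG in 42.6%, TATAAA in 10.8% and CACGTG in 6.31%.

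RefSeq promoter windows of 300 bases on GRCh38.p14 are described for 4 of the 8 genes, UNC5A, DCC, NEO1 and NTN4, the last with 2 windows. Their GC content was 80.7% for UNC5A, 58.0% for DCC, 72.7% for NEO1 and 62.3% and 76.7% for the 2 windows of NTN4, against a median of 58.7% over all windows. The GC box core GGGCGG occurred 4 times in the window of UNC5A, 4 times in the second of NTN4 and once in that of NEO1, and 44.9% of all windows hold it.

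UNC5C encodes a receptor for netrin-1 that mediates repulsion of axons. It had 107, 79 and 183 counts in A1 cells (replicates A, B and C, as in every list of values below), 91, 71 and 77 in A4 cells, and 512, 437 and 366 in vector cells. The corresponding levels were 3.77, 2.12 and 4.30 CPM in A1 cells, 1.91, 1.62 and 1.72 CPM in A4 cells, and 11.1, 8.53 and 8.93 CPM in vector cells. Every NCBP2 library lay below every vector library, and every clone A4 library lay below every clone A1 library. The means were 3.40 CPM ± 1.14 (SD, n = 3) in A1 cells, 1.75 CPM ± 0.149 (SD, n = 3) in A4 cells and 9.52 CPM ± 1.38 (SD, n = 3) in vector cells. The fitted log2 fold change against vector was -1.49 (SE 0.325) in A1 cells and -2.44 (SE 0.336) in A4 cells, which is 2.80-fold and 5.43-fold lower. With both clones taken as 1 NCBP2 arm it was -1.89 (SE 0.337). These comparisons share the 3 vector libraries, and they chose the gene. In such bulk samples, fewer cells with the RNA and less RNA per cell cannot be told apart.

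Clone A4 against clone A1 was not used to select UNC5C. The log2 difference was -0.96 (SE 0.327), and edgeR's quasi-likelihood test gave an unadjusted p of 0.0125. After Benjamini-Hochberg adjustment over 21682 genes the edgeR adjusted p was 0.529, and by DESeq2 it was 0.175. All 3 clone A4 libraries were the lower ones, but the difference did not pass the threshold of 0.05 after adjustment.

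**Figure D1:**
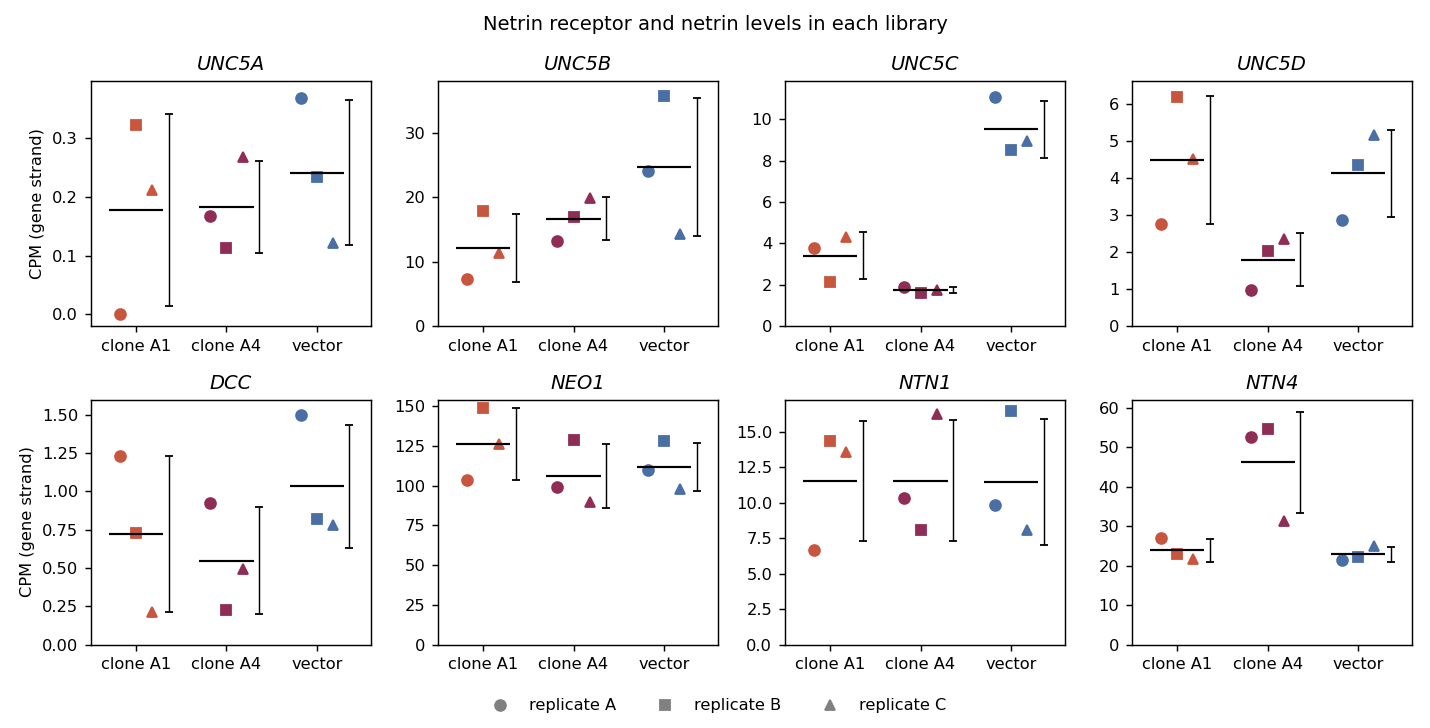
Levels of the 8 genes in CPM on the strand of the gene, one panel per gene with its own axis; points are libraries (circle replicate A, square B, triangle C), horizontal lines group means and bars 1 SD over 3 libraries. UNC5C lies at 8.53 to 11.1 CPM in vector cells and at 4.30 CPM or less in the clones, and NTN4 is at 31.3 CPM or more in A4 cells and at 27.0 CPM or less elsewhere.

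Reads on the strand opposite to UNC5C were more common than those on its own strand. Over the 9 libraries, 2799 counts fell on the opposite strand of its exons and 1923 on its own, so the opposite strand held 59.3% of both. For the median of 20511 genes with at least 100 counts over both strands it held 1.07%, and 6.18% of those genes were at or above the value of UNC5C. Opposite-strand levels were 14.4, 6.59 and 7.34 CPM in A1 cells, 6.73, 4.39 and 9.40 CPM in A4 cells, and 5.87, 3.43 and 11.03 CPM in vector cells. The 3 groups overlapped, with means of 9.44 CPM ± 4.31, 6.84 CPM ± 2.51 and 6.78 CPM ± 3.88 (SD, n = 3 each). The groups separated on the strand of UNC5C, which is how the gene was chosen, and overlapped on the other.

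UNC5C held 20.7%, 24.4% and 37.0% of the reads of both strands in A1 cells, 22.1%, 26.9% and 15.5% in A4 cells, and 65.4%, 71.3% and 44.7% in vector cells. The 95% Wilson intervals of these shares reached at most 5.32 percentage points to either side and cover counting error only, because PCR copies of a molecule cannot be recognised here. All 6 NCBP2 libraries were below all 3 vector libraries. The shares rest on the own-strand counts by which UNC5C was chosen, so this separation is a description and no added support. When strand was ignored, the log2 fold change of UNC5C shrank to -0.37 in A1 cells, -0.96 in A4 cells and -0.64 in the NCBP2 arm. Which transcript the opposite-strand reads come from was not tested. Of the other genes, opposite-strand reads were 23.1% for UNC5A, 16.7% for DCC, 6.92% for NTN1, 1.26% for UNC5B and under 1% for UNC5D, NEO1 and NTN4.

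**Figure D2:**
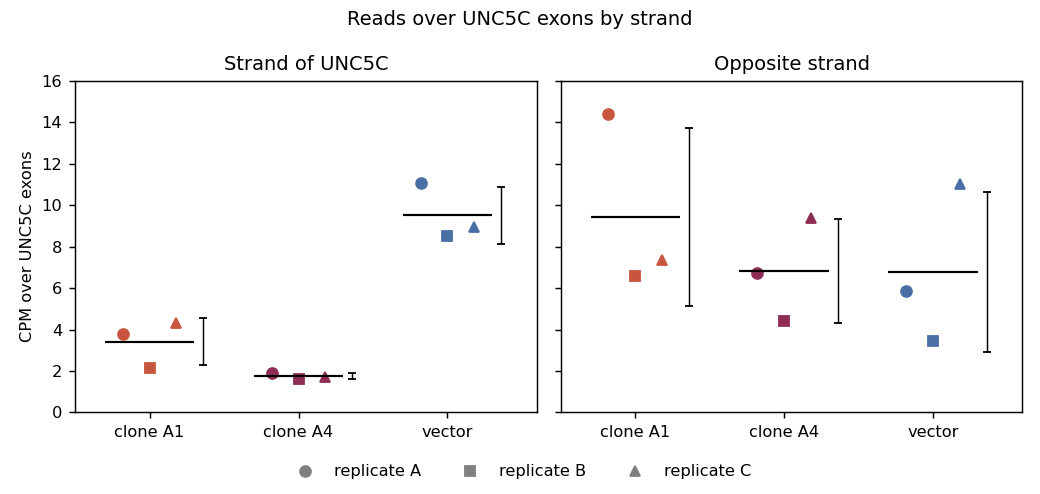
Reads over the exons of UNC5C on its own strand (left) and on the opposite strand (right) in CPM; points are libraries, horizontal lines group means and bars 1 SD over 3 libraries. On the left the vector libraries lie at 8.53 to 11.1 CPM above both clones, as chosen. On the right the vector range of 3.43 to 11.03 CPM overlaps both.

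UNC5C-AS1 (ENSG00000271474.1, chromosome 4, 95549129 to 95552457, plus strand) shares 78 bases with the start of UNC5C. It had 0, 13 and 22 counts in A1 cells, 29, 26 and 25 in A4 cells and 33, 25 and 18 in vector cells. Clone A4 and vector overlapped, and the low value was that of clone A1 replicate A. Its fitted log2 differences were -0.89 (SE 0.993) in A1 cells and 0.10 (SE 0.971) in A4 cells, with edgeR adjusted p of 0.870 and 1.

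The genes around UNC5C were read for a change shared by the region. Among the 10 tested genes on either side, spanning 89410960 to 98929133, 8 had a negative and 12 a positive log2 fold change in A1 cells, with a median of 0.16, and 10 and 10 in A4 cells, with a median of 0.02. The medians over the 796 tested genes of chromosome 4 were 0.05 and 0.02. None of the 20 passed the threshold in edgeR, and 1 in A1 cells and 5 in A4 cells had an unadjusted p under 0.05. Over all genes the shares at that unadjusted p were 7.51% and 5.25%. The 1 in A1 cells was TSPAN5 (-0.64). Those of clone A4 included BMPR1B (-0.64) and 3 noncoding genes, ENSG00000251095 (-1.11), ENSG00000287552 (2.75) and ENSG00000254044 (1.79). Apart from BMPR1B these were named after their values were seen. By DESeq2, 1 of the 20 was called in A4 cells, against vector and against A1 cells, and 0 in A1 cells or in the NCBP2 arm. The shares of all genes called by DESeq2 were 1.01%, 1.14%, 1.26% and 0.526% in that order.

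BMPR1B, a receptor for bone morphogenetic proteins, ends 4055 bases beyond the 3′ end of UNC5C and is read from the plus strand. It measured 27.1 CPM ± 1.29 in A1 cells, 20.1 CPM ± 2.56 in A4 cells and 31.2 CPM ± 8.83 in vector cells (SD, n = 3 each). Each clone's range overlapped that of the vector libraries. The log2 fold change in A4 cells was -0.64 (SE 0.229, edgeR adjusted p 0.681), smaller than the -2.44 of UNC5C.

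**Figure D3:**
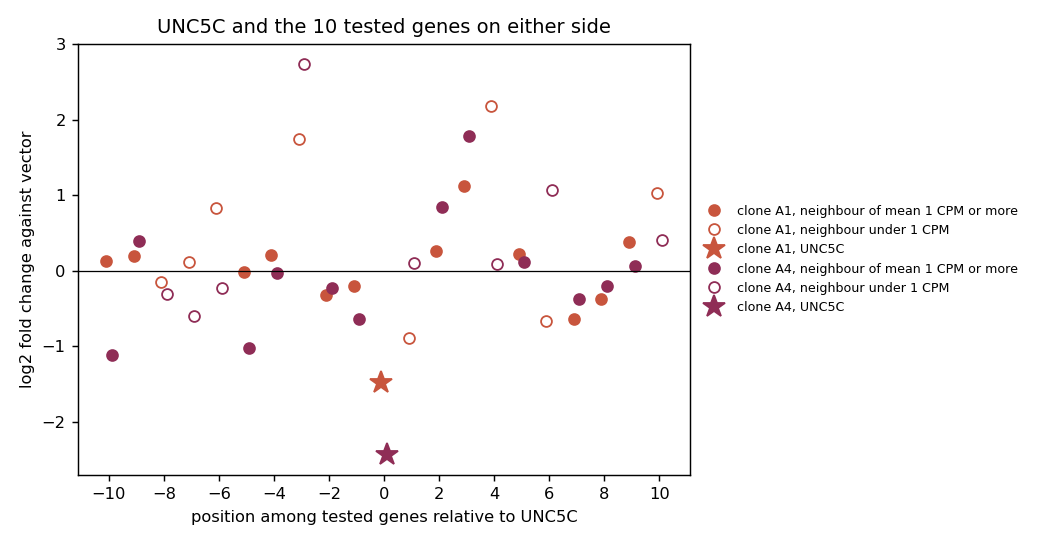
Log2 fold change against vector of UNC5C (stars) and of the 10 tested genes on either side along chromosome 4 (circles, open where the mean level is under 1 CPM), in gene order, for clone A1 and clone A4. The neighbours scatter around 0 with medians of 0.16 and 0.02, and UNC5C lies below all 20 in both clones, as chosen.

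The other UNC5 receptors did not share one pattern. UNC5B (ENSG00000107731.12, chromosome 10, 71212570 to 71302864, plus strand), known for its role in blood vessels, measured 7.36, 17.8 and 11.3 CPM in A1 cells, 13.2, 16.9 and 19.9 CPM in A4 cells, and 24.1, 35.8 and 14.2 CPM in vector cells. Vector replicates A and B were the highest of the 9, while vector replicate C lay within the range of both clones. Its log2 fold change was -1.02 (SE 0.368) in A1 cells, with an edgeR unadjusted p of 0.0166 and adjusted p of 0.493. In A4 cells the value was -0.57 (SE 0.364, edgeR adjusted p 1), and in the NCBP2 arm -0.78 (SE 0.316, edgeR adjusted p 0.784). Without clone A1 replicate A, the library that stands apart, the value in A1 cells was -0.76 (edgeR adjusted p 0.844). Without vector replicate B, the highest library, it was -0.65 in A1 cells, -0.21 in A4 cells and -0.41 in the NCBP2 arm. Without a filter on low counts its edgeR adjusted p in A1 cells was 0.0267. The summed level of the 6 endothelial markers was 1.94 to 4.36 CPM in A1 cells, 4.97 to 5.81 CPM in A4 cells and 4.635 to 9.055 CPM in vector cells. A1 cells lay below vector cells in that sum, whereas the UNC5B levels of A1 and vector cells overlapped. Of those markers TEK alone exceeded 1 CPM in every library and CLDN5 stayed under 0.1 CPM, and their part in the UNC5B values was not tested.

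UNC5D (ENSG00000156687.11, chromosome 8, 35235475 to 35796550, plus strand) encodes a receptor that binds FLRT proteins as well as netrin. Its levels were 2.74, 6.18 and 4.51 CPM in A1 cells, 0.986, 2.02 and 2.35 CPM in A4 cells, and 2.86, 4.35 and 5.17 CPM in vector cells. All 3 clone A4 libraries lay below the other 6, and clone A1 and vector overlapped. The log2 difference of clone A4 was -1.21 (SE 0.432) from vector and -1.33 (SE 0.434) from clone A1. The edgeR unadjusted p was 0.016 and 0.00963 in that order, and the adjusted p 0.681 and 0.470, so neither passed the threshold. In A1 cells the value was 0.12 (SE 0.423, edgeR adjusted p 0.967).

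UNC5A (ENSG00000113763.12, chromosome 5, 176810519 to 176880898, plus strand) was near the limit of detection. It had 0, 12 and 9 counts in A1 cells, 8, 5 and 12 in A4 cells, and 17, 12 and 5 in vector cells. The groups overlapped throughout. The log2 fold changes were -0.41 (SE 1.22) and -0.39 (SE 1.21), and intervals of 1.96 SE ran from -2.81 to 1.98 and from -2.77 to 1.99. A difference of several fold in either direction is therefore not excluded by these libraries.

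Levels of different genes were compared per kilobase of exon. In the vector libraries the UNC5 receptors summed to 3.43 to 6.48 CPM per kb, in A1 cells to 1.68 to 3.45 and in A4 cells to 2.24 to 3.35. The clone A4 libraries were all below the vector libraries in this sum, and clone A1 overlapped them. The sum holds the UNC5C counts by which that gene was chosen, so this narrow separation is a description and no added support. Whether it holds without UNC5C was not tested. UNC5B was the main receptor of the family in every library, with 60.8% to 80.6% of the sum in vector cells, 63.9% to 75.5% in A1 cells and 86.2% to 87.1% in A4 cells. Its share was higher in all 3 clone A4 libraries than in the other 6. A low UNC5C, as chosen, raises that share, because UNC5C is part of the sum. The level of UNC5B itself in A4 cells overlapped those of A1 and vector cells, with means of 16.7 CPM in A4 cells and 24.7 CPM in vector cells. UNC5C made up 21.1%, 12.3% and 24.4% in vector cells, 21.0%, 5.76% and 15.9% in A1 cells, and 7.96%, 5.32% and 4.82% in A4 cells. The clone A4 shares were below all vector shares, and those of clone A1 overlapped both groups. UNC5C thus had a lower level in both clones, which is how it was chosen. Its share of the UNC5 family rests on the same counts and was lower, free of overlap with vector, in A4 cells.

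**Figure D4:**
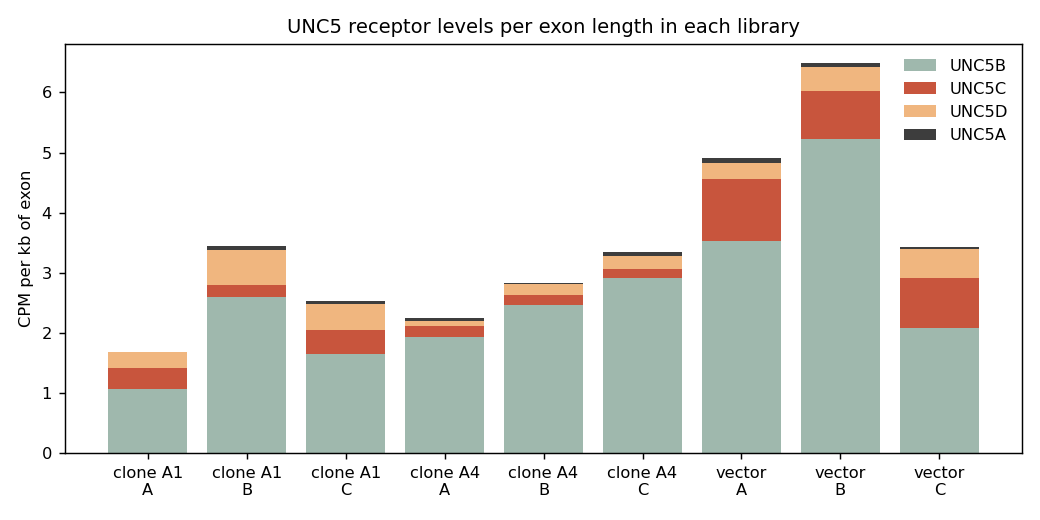
Stacked levels of the 4 UNC5 receptors in CPM per kb of exon in each of the 9 libraries, on a linear axis from 0. UNC5B fills 60.8% or more of every bar, and the bars of clone A4 (2.24 to 3.35) are lower than those of the vector libraries (3.43 to 6.48). The bars include UNC5C, which was chosen for being lower.

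DCC (ENSG00000187323.12, chromosome 18, 52340197 to 53535899, plus strand), the receptor that mediates attraction, was measured on few reads. Its counts were 35, 27 and 9 in A1 cells, 44, 10 and 22 in A4 cells, and 69, 42 and 32 in vector cells. Vector replicate A was the highest, and the groups overlapped. The log2 fold change came to -0.52 (SE 0.754, edgeR adjusted p 0.902) in A1 cells and -0.91 (SE 0.756, edgeR adjusted p 1) in A4 cells, with intervals of 1.96 SE from -2.0 to 0.96 and from -2.39 to 0.57.

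NEO1 (ENSG00000067141.17, chromosome 15, 73051710 to 73305205, plus strand) encodes neogenin, which binds repulsive guidance molecules as well as netrins. It measured 103.5, 149.3 and 126.1 CPM in A1 cells, 99.5, 128.9 and 90.0 CPM in A4 cells, and 109.9, 128.1 and 98.0 CPM in vector cells. The 3 groups overlapped, with the highest library in A1 cells and the lowest in A4 cells. Its log2 fold change was 0.17 (SE 0.195) in A1 cells and -0.08 (SE 0.195) in A4 cells, and intervals of 1.96 SE ran from -0.21 to 0.56 and from -0.46 to 0.30. Of the 8 genes it was measured with the most reads, 43943 counts in all.

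NTN4 encodes netrin-4, a component of basement membranes that binds laminin. It measured 27.0, 22.8 and 21.6 CPM in A1 cells, 52.6, 54.5 and 31.3 CPM in A4 cells, and 21.5, 22.0 and 25.1 CPM in vector cells. All 3 clone A4 libraries lay above the other 6, and replicate C of clone A4 was the nearest to them. The means were 23.8 CPM ± 2.82 in A1 cells, 46.1 CPM ± 12.8 in A4 cells and 22.9 CPM ± 1.93 in vector cells (SD, n = 3 each). Clone A4 was 2.02-fold above vector, a log2 fold change of 1.01 (SE 0.229), and 1.94-fold above clone A1, a log2 difference of 0.95 (SE 0.229).

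The call for NTN4 depended on the test. The edgeR adjusted p was 0.221 against vector (unadjusted 0.000776) and 0.235 against clone A1 (unadjusted 0.00123), neither past the threshold. By DESeq2 the adjusted p was 0.00851 and 0.0188, and by edgeR with no filter on low counts 0.0154 and 0.0203, all past it. The other edgeR runs did not pass. With DESeq2 size factors the adjusted p was 0.226 and 0.24, and without regard to strand 0.293 and 0.295. With the replicate letter as a block it was 0.168 and 0.174. With 1 library left out the lowest edgeR adjusted p was 0.0938 and 0.085. In A1 cells the log2 fold change came to 0.06 (SE 0.227, edgeR adjusted p 0.971), and in the NCBP2 arm 0.61 (SE 0.304, edgeR adjusted p 0.906). The 10 tested genes on either side of NTN4 were looked at after its values were seen. In clone A4 against vector their median was -0.07, with 11 negative and 9 positive. In edgeR 0 of them passed the threshold (0.115% of all genes) and 0 had an unadjusted p under 0.05 (5.25% of all genes). In clone A4 against clone A1 their median was -0.16, with 16 negative and 4 positive. There 0 passed the threshold in edgeR (0.161% of all genes), and 1 had an unadjusted p under 0.05 (6.63%).

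NTN1 (ENSG00000065320.9, chromosome 17, 9021510 to 9244000, plus strand) encodes netrin-1, the ligand of DCC and of the UNC5 receptors. Its levels were 6.65, 14.3 and 13.6 CPM in A1 cells, 10.3, 8.08 and 16.3 CPM in A4 cells, and 9.83, 16.5 and 8.10 CPM in vector cells. Each group held both low and high libraries. The log2 fold change was 0.01 in both clones (SE 0.373 in each), with intervals of 1.96 SE from -0.72 to 0.74. Changes of up to that size in either direction are therefore not excluded. The interval is no limit of detection for the adjusted test.

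**Figure D5:**
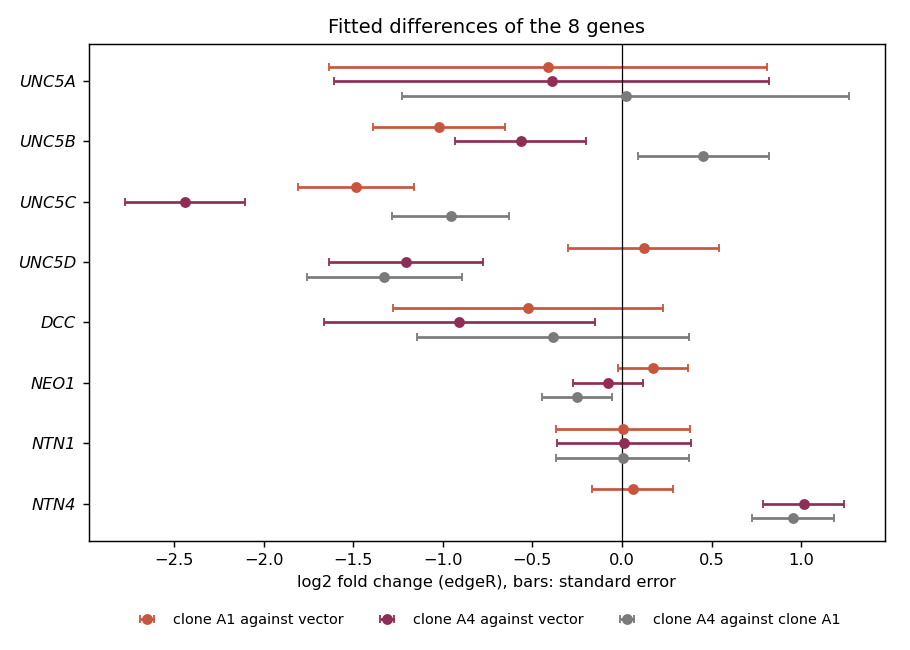
Log2 fold changes of the 8 genes from edgeR (points) with their standard errors (bars) for A1 cells and A4 cells against vector, and for A4 cells against A1 cells. UNC5C is the lowest against vector, at -1.49 and -2.44, which is how it was chosen, and NTN4 lies at 1.01 in A4 cells and at 0.06 in A1 cells.

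The count of genes called was read against the share of all genes called. Of the 7 genes other than UNC5C, 0 passed an edgeR adjusted p of 0.05 in A1 cells, where 0.0646% of all genes did, 0 in A4 cells, where 0.115% did, and 0 in the NCBP2 arm, where 0.0184% did. In clone A4 against clone A1, 0 of all 8 passed, with 0.161% of all genes called. At an unadjusted p under 0.05 in edgeR the count was 1 of 7 in A1 cells (UNC5B, background 7.51%), 2 of 7 in A4 cells (UNC5D and NTN4, 5.25%), 1 of 7 in the NCBP2 arm (UNC5B, 5.71%) and 3 of 8 between the clones (UNC5C, UNC5D and NTN4, 6.63%). By DESeq2, NTN4 was called in A4 cells and between the clones, against 1.01% and 1.14% of genes, and no other was called there, in A1 cells (1.26%) or in the NCBP2 arm (0.526%).

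Groups did not overlap for 0 of the 7 genes in A1 cells (14.2% of all genes), 2 in A4 cells (12.1%), 0 in the NCBP2 arm (3.74%) and 3 of 8 between the clones (13.6%). With 7 or 8 genes these counts are small. The 2 genes that separated clone A4 from the vector libraries were UNC5D, lower, and NTN4, higher, and between the clones UNC5C joined UNC5D on the lower side.

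Per kilobase of exon, NEO1 was the most abundant of the 8 in vector cells at 13.8 CPM per kb ± 1.87, followed by NTN4 at 5.24 ± 0.442, UNC5B at 3.61 ± 1.57 and NTN1 at 1.79 ± 0.690 (SD, n = 3 each). UNC5C came next at 0.891 ± 0.129, then UNC5D at 0.382 ± 0.109, DCC at 0.0787 ± 0.0306 and UNC5A at 0.0559 ± 0.0286 (SD, n = 3 each). Neighbours in this order that overlapped were NTN4 and UNC5B, UNC5B and NTN1, and DCC and UNC5A. UNC5C was above UNC5D in all 3 vector libraries. In A1 cells, UNC5C at 0.318 CPM per kb ± 0.106 overlapped UNC5D at 0.415 ± 0.159, and in A4 cells, UNC5C at 0.164 ± 0.0139 overlapped UNC5D at 0.166 ± 0.0660 (SD, n = 3 each). In A4 cells, NTN4 at 10.6 CPM per kb ± 2.94 overlapped NEO1 at 13.04 ± 2.49 (SD, n = 3 each), which it did not in the other groups. Of the 2 netrins compared per kilobase, NTN4 was the higher in all 9 libraries, at 1.96 to 9.92 times the level of NTN1.

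The genes with the most similar profile to UNC5C over the 9 libraries, among 11409 protein-coding genes with a mean log2 CPM of at least 1, included RBM28 (Pearson r 0.952), EGFR (0.933), COL8A1 (0.933) and TIGAR (0.928). RBM28 encodes an RNA-binding protein of the nucleolus, and EGFR the receptor of epidermal growth factor. EGFR measured 12.9 CPM ± 2.09 in A1 cells, 8.73 CPM ± 1.43 in A4 cells and 23.3 CPM ± 4.28 in vector cells (SD, n = 3 each). The most opposite profiles were those of NCBP2 (-0.947), THSD7B (-0.935), LDAH (-0.929), PCDHB8 (-0.925) and KIF5A (-0.919). The transgene thus headed the opposite list, which the choice of UNC5C as lower in the NCBP2 clones favours. Its r is therefore no test of a relation between the 2 genes. Clone A4 held both the highest NCBP2 and the lowest UNC5C. These values describe 9 libraries in 3 groups that share cells of a clone, and any gene that separates the groups in this order will rank high. Among the related genes, r with UNC5C was -0.693 for NTN4, 0.469 for UNC5D, 0.459 for DCC, 0.29 for UNC5B, and between -0.1 and 0.1 for UNC5A, NEO1 and NTN1.

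Other genes of netrin signalling and of related guidance systems were read from 7 lists of 126 genes, of which 113 could be tested. In A4 cells 1 of the 113 passed the threshold in edgeR, lower both than vector and than clone A1, and it was ADGRL3. In A1 cells and in the NCBP2 arm 0 passed. Over all genes 0.115% passed in A4 cells, 0.161% between the clones, 0.0646% in A1 cells and 0.0184% in the NCBP2 arm. At an unadjusted p under 0.05, 3 were higher and 8 lower in A1 cells, 2 and 6 in A4 cells, 5 and 4 in clone A4 against clone A1, and 1 and 7 in the NCBP2 arm. Those counts are 9.73%, 7.08%, 7.96% and 7.08% of the 113, beside the backgrounds of 7.51%, 5.25%, 6.63% and 5.71% given above. By DESeq2, 0 of the list genes were called in A1 cells (1.26% of all genes) and 3 in A4 cells (1.01% of all genes). The 3 were ADGRL3, FLRT3 (-1.53, DESeq2 adjusted p 0.0145) and SEMA3E (-1.26, DESeq2 adjusted p 0.0419). DESeq2 also called 2 between the clones (1.14% of all genes), ADGRL3 and SEMA6A (-0.94, adjusted p 0.0160). In the NCBP2 arm (0.526% of all genes) DESeq2 called 1, SEMA3E (-1.12, adjusted p 0.0457). The fit of the arm treats 6 libraries of 2 clones as separate. With counts summed per clone, 0 of all genes passed in edgeR in the NCBP2 arm. That 0 of the list genes passed there follows from this and says nothing about the lists.

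ADGRL3 (ENSG00000150471.16, chromosome 4, 61200326 to 62078335, plus strand) encodes latrophilin-3, an adhesion receptor that binds FLRT proteins and through them UNC5 receptors. It measured 60.3, 38.3 and 50.2 CPM in A1 cells, 14.4, 13.3 and 20.3 CPM in A4 cells, and 79.3, 50.6 and 72.4 CPM in vector cells. All 3 clone A4 libraries lay below the other 6, while clone A1 and vector overlapped. Its log2 fold change in A4 cells was -2.07 against vector (SE 0.252, edgeR adjusted p 0.00765), which is 4.21-fold lower, and -1.63 against A1 cells (SE 0.249, edgeR adjusted p 0.0257). In A1 cells the value was -0.44 (SE 0.243, edgeR adjusted p 0.725). The difference between the clones lost its call without clone A1 replicate A (edgeR adjusted p 0.0643) or C (0.0938), or without clone A4 replicate A (0.153) or B (0.121).

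Among the other netrin-family and alternative ligands, 10 of 12 were tested and 0 passed the threshold in edgeR. Their median log2 fold change was -0.21 in A1 cells and -0.06 in A4 cells, against -0.02 and 0.03 over all genes. The most abundant were FLRT2, at 60.7 to 97.0 CPM over the 9 libraries, and RGMB, a neogenin ligand, at 39.0 to 64.1 CPM. FLRT3 and NTNG2 had an unadjusted p under 0.05 in clone A4 against vector. Of the 14 co-receptors and other netrin-binding surface proteins, 12 were tested, with medians of -0.12 and -0.09, and ITGA3 had an unadjusted p under 0.05 in A1 cells.

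Of the 26 cytoplasmic partners of netrin receptors, 25 were tested and 0 passed in any comparison in edgeR, with medians of -0.04 in A1 cells and -0.07 in A4 cells. The microtubule-binding MAP1B (864 to 1242 CPM) and the actin-binding ABLIM1 (756 to 1138 CPM) were the most abundant. PTK2 and WASL in A1 cells and WASL in A4 cells had an unadjusted p under 0.05. The 11 genes of death signalling below UNC5 and DCC were all tested, with medians of 0.12 and -0.07 and 0 past the threshold in edgeR. MAGED1, which binds UNC5 receptors, lay at 177.3 to 470.2 CPM and PPP2CA, a phosphatase subunit, at 117.1 to 195.6 CPM. CASP8 had an unadjusted p under 0.05 in both clones.

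In the other guidance families 0 genes passed the threshold in edgeR in any comparison. Medians in A1 cells and clone A4 were -0.21 and -0.05 for 8 tested genes of Slit and Robo, -0.18 and 0.01 for 29 semaphorins, plexins and neuropilins, and -0.28 and -0.05 for 18 ephrins and Eph receptors. ROBO1, a receptor for Slit proteins, was measured at 160.1 to 217.3 CPM, and SRGAP2, which acts below it, at 56.1 to 76.8 CPM. SEMA3C, a secreted semaphorin, ranged from 111.1 to 387.5 CPM and PLXNB2, a semaphorin receptor, from 38.4 to 237.0 CPM. The Eph receptors EPHA2 and EPHB4 lay at 30.7 to 106.8 CPM and 22.9 to 53.5 CPM. At an unadjusted p under 0.05 were SLIT3 in both clones, SEMA3E in both, SEMA6A, PLXNA2, PLXNA4 and EPHB4 in A1 cells, and EPHA4 in A4 cells.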

How the data were processed

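The authors deposited 1 table per library of unnormalised whole-number counts for each gene. STAR 2.7.1a and GRCh38 are named in the submitters' processing notes, with no role stated, and the annotation is not given in the sources used here. The second of the 3 deposited count columns held most stranded reads and served as the gene's own strand. The 4 lines that name no gene (44.5% to 63.6% of reads) were left out, and reads with several alignments (6.80% to 16.3%) are not in the counts. Of 60609 identifiers, 60295 matched GENCODE 44, which gave symbols, coordinates and exon lengths. Groups came from the titles. The labels name polyadenylated RNA as the molecule, but their protocol a ribodepletion kit.

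edgeR 4.0.16 (R 4.3.3) was used with filterByExpr, TMM scaling and the robust quasi-likelihood test in 1 fit with 3 groups and 1 fit of the NCBP2 arm against vector, with Benjamini-Hochberg adjustment over all 21682 genes and a threshold of 0.05. DESeq2 1.42.0 was an alternative, beside other size factors, no filter, counts without strand, a replicate block, counts summed per clone and each library left out. Scripts were tested on simulated data. The 8 genes and the lists were chosen with earlier results of these data known. From each list the text names genes past the threshold, or otherwise the 2 with the highest mean log2 CPM. The 5 genes most like UNC5C and the 5 most opposite were named by Pearson r of log2 CPM, with a prior count of 2. Some items that these rules name are not reported here.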

Additional observations from a re-analysis of the deposited data

How the results depend on the processing

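The number of genes called moved with the processing, which bears on the adjusted p of every gene above. Without a filter on low counts it was 312 in clone A1, 163 in clone A4, 231 between the clones and 20 in the NCBP2 arm. By DESeq2 it was 274, 185, 246 and 103. With 1 library left out it ranged from 3 to 14, 7 to 41, 10 to 56 and 1 to 8 in the same order, and with counts summed per clone it was 0 in the NCBP2 arm. The replicate letters were not taken to pair the libraries in the main fit, and whether same-letter libraries share a batch was not tested. The deviations of same-letter libraries correlated between -0.102 and 0.179, over 0.1 in 6 of 9 pairs. Those of libraries with different letters correlated between -0.271 and 0.221. The best partner had the same letter in 8 of 18 comparisons. With the letter as a replicate block the numbers called were 38 in clone A1, 53 in clone A4, 51 between the clones and 13 in the NCBP2 arm. The main fit called 14, 25, 35 and 4 in that order.

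UNC5C was chosen on these libraries for being lower, so the alternative runs are no independent support for that. UNC5C stayed lower under every alternative run. Counts without regard to strand moved it to -0.374 in clone A1, -0.961 in clone A4 and -0.639 in the NCBP2 arm, because reads of the opposite strand then enter. With 1 library left out it ranged from -1.70 to -1.24, -2.52 to -2.33 and -2.10 to -1.78. NTN4 in clone A4 ranged from 0.860 to 1.21 against vector with 1 library left out.

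Small values changed sign, and the cause was not tested. NTN1 turned negative without a filter (-0.0162 in clone A1, -0.0031 in clone A4, -0.0096 in the NCBP2 arm), without regard to strand (-0.0561, -0.089, -0.0725, and -0.033 between the clones) and under the replicate block (-0.0403 in clone A1, -0.0077 in the NCBP2 arm). With 1 library left out, in clone A1, clone A4, between the clones and in the NCBP2 arm, NTN1 ranged from -0.205 to 0.368, -0.337 to 0.358, -0.343 to 0.188 and -0.210 to 0.363, and UNC5A from -1.12 to 0.146, -0.781 to 0.0125, -0.523 to 0.708 and -0.733 to 0.0081. Likewise, UNC5D (clone A1) ranged from -0.189 to 0.380, DCC (between the clones) from -0.998 to 0.238, NEO1 from -0.262 to 0.0269 (clone A4) and -0.0518 to 0.161 (NCBP2 arm), and NTN4 (clone A1) from -0.0343 to 0.120. UNC5A and DCC had the fewest counts of the 8 genes, 80 and 290 over all libraries, and how far depth rather than the spread between libraries sets their error was not tested.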
